A study of Homo sapiens with 6 samples.

Results

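The genes described here build and position the cell contacts of epithelial sheets. They are 43 genes chosen by symbol: 14 claudins, 4 other tight junction membrane proteins, 4 tight junction plaque proteins, 7 polarity proteins, 4 desmosomal cadherins, 7 desmosome plaque proteins and 3 connexins. Of the 43, 41 were listed among the 23569 genes of the expression table, and CLDN14 and CLDN18 were not analysed here. A comparison between groups was made for the 35 members whose mean over all libraries reached 0.1 FPKM, a level in which the fragments of a gene are scaled by its length and by the library total. The other 6 listed members (CLDN6, CLDN10, CLDN11, CLDN16, DSG3 and PKP1) lay under that limit, with no value above 0.104 FPKM or 11 fragments in any library.

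Tight junctions seal the space between neighbouring epithelial cells. Claudins form their strands and set which ions and water can pass, occludin and its relatives sit beside them, and plaque proteins such as ZO-1 and cingulin tie them to the actin and microtubule cytoskeleton. Desmosomes hold cells together mechanically: desmogleins and desmocollins span the gap, and plakophilins, plakoglobin and desmoplakin link them to keratin filaments. The PAR, Crumbs and Scribble complexes mark the apical and basolateral sides of a cell, and connexins form gap junction channels through which small molecules pass between cells. In bile ducts these contacts keep bile inside the lumen, and their loss is a known feature of epithelial cells that take on a mesenchymal form.

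TFK1 is an established human cholangiocarcinoma (bile duct cancer) cell line. Lentiviral infection and 2 weeks of puromycin selection gave negative control cells (oeNC, 3 libraries) and cells overexpressing STUB1, a ubiquitin ligase (oeSTUB1, 3 libraries), and both groups carried a lentiviral construct. The study looked for tumour suppressor genes regulated by STUB1 through UHRF1 and the DNA methyltransferase DNMT1, and no methylation was measured in these libraries. The labels do not say whether replicates were separate infections or cultures, so p-values measure only the spread between these libraries, and a selected pool or a culture cannot be told apart from the effect of STUB1.

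Library totals lay between 33106564 and 36744521 fragments. A gene was counted as past both limits when its adjusted p was under 0.05 (limma on log2(FPKM + 0.1), adjusted over all 15353 genes tested) and its log2 fold change exceeded 1 in size. STUB1 itself stood at 32.9, 33.0 and 30.9 FPKM in oeNC and at 61.4, 75.0 and 61.9 FPKM in oeSTUB1 (log2 fold change 1.03, adjusted p = 0.00064). Of the biliary epithelial markers, KRT7, KRT8 and KRT18 were at 482 FPKM or more in every library, EPCAM and CDH1 were present and lower in oeSTUB1, and KRT19, a defining bile duct keratin, was at 0.374 to 0.529 FPKM in oeNC and 2.51 to 3.41 FPKM in oeSTUB1. The summed level of this list of 8, mostly KRT8 and KRT18, lay between 7420 and 8000 FPKM in oeNC and between 4730 and 6270 FPKM in oeSTUB1. In it 1 gene was past both limits upwards (2.79% of all genes tested were) and 2 downwards (2.4% of all genes tested). KRT8 (3220 ± 173 against 2170 ± 286 FPKM) and KRT18 (3960 ± 111 against 2490 ± 383 FPKM) were lower without overlap. KRT7 (502 ± 23 against 704 ± 149 FPKM) and MUC1 (1.16 ± 0.116 against 2.01 ± 0.105 FPKM) were higher without overlap, and SOX9 overlapped. Summed hepatocyte markers (8 genes) lay between 7.28 and 8.07 FPKM in oeNC and between 2.33 and 2.79 FPKM in oeSTUB1. This difference came mostly from ASGR1, the only gene of that list past both limits (log2 fold change -2.45, adjusted p = 0.00063). Albumin stayed under the limit of 0.1 FPKM. The lists for fibroblasts (1.31 to 2.36 against 2.16 to 4.05 FPKM), endothelium (0.077 to 0.106 against 0.0974 to 0.25 FPKM) and leukocytes (32.3 to 34.7 against 25.8 to 26.5 FPKM, mostly CD68 and CD14) had no gene past both limits. The part of these markers in the results below was not tested, nor can fewer expressing cells be told apart from less RNA per cell.

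The library oeSTUB1 replicate 2 stood apart. Its fragments differed from those of the other oeSTUB1 libraries by a chi-square of 82.6 and 76.7 for each degree of freedom, where the remaining pairs within a group gave 3.48 to 10.4, and long genes read low in it. The median change of the 7674 tested genes longer than 3694 bases was -0.16 in this library against the oeNC mean on the log2 scale, and that of the shorter genes was 0.20. Many members are long genes, and 22 of the 35 had their lowest oeSTUB1 value in this library. Values without it, and after a correction of each library for gene length, are therefore given beside the counts. The part of this library in each result was not tested further.

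Most members had lower values after STUB1 overexpression. Past both limits, 4 of the 35 members fell, CGN, DSC2, DSC3 and PPL, where 2.4% of all genes tested did, and 1 member rose, GJA1, where 2.79% of all genes did. By adjusted p alone 7 members fell against 6.59% of all genes, the others being PARD6B, PKP4 and EVPL, and 2 rose against 7.01% of all genes, with CLDN2 beside GJA1. The groups did not overlap, with every oeSTUB1 library below every oeNC library, for 20 members, against 17.3% of all genes, and lay the other way for 2 members against 21.5% of all genes. The median log2 fold change was -0.34 over the 35 members and 0.02 over all genes, with 24 members negative (8 of them desmosome genes) and 11 positive. Leaving out a single oeNC library left 5 to 6 members lower by adjusted p alone, against 2.97% to 3.11% of all genes, with the fewest without oeNC replicate 2.

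Without oeSTUB1 replicate 2 the counts past both limits were 4 lower and 1 higher, but CLDN7 (log2 fold change -1.02) took the place of DSC2 (-0.99). Shares of all genes past both limits are not given here for this fit or for the length correction below. The adjusted p was passed by 26.8% of all genes in this fit, against 13.6% in the main fit. By adjusted p alone 12 members were then lower, against 12% of all genes, and 2 higher, against 14.8%. Those added to the 7 were CLDN7, F11R, DSG2, DSP and PKP2. Non-overlapping groups were found for 20 members downwards (23.9% of all genes) and 3 upwards (31.6%), and the median member change was -0.23. With a correction for gene length, 13 members were lower by adjusted p alone against 10.7% of all genes, 3 of them past both limits, and the median was -0.31.

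**Figure D1:**
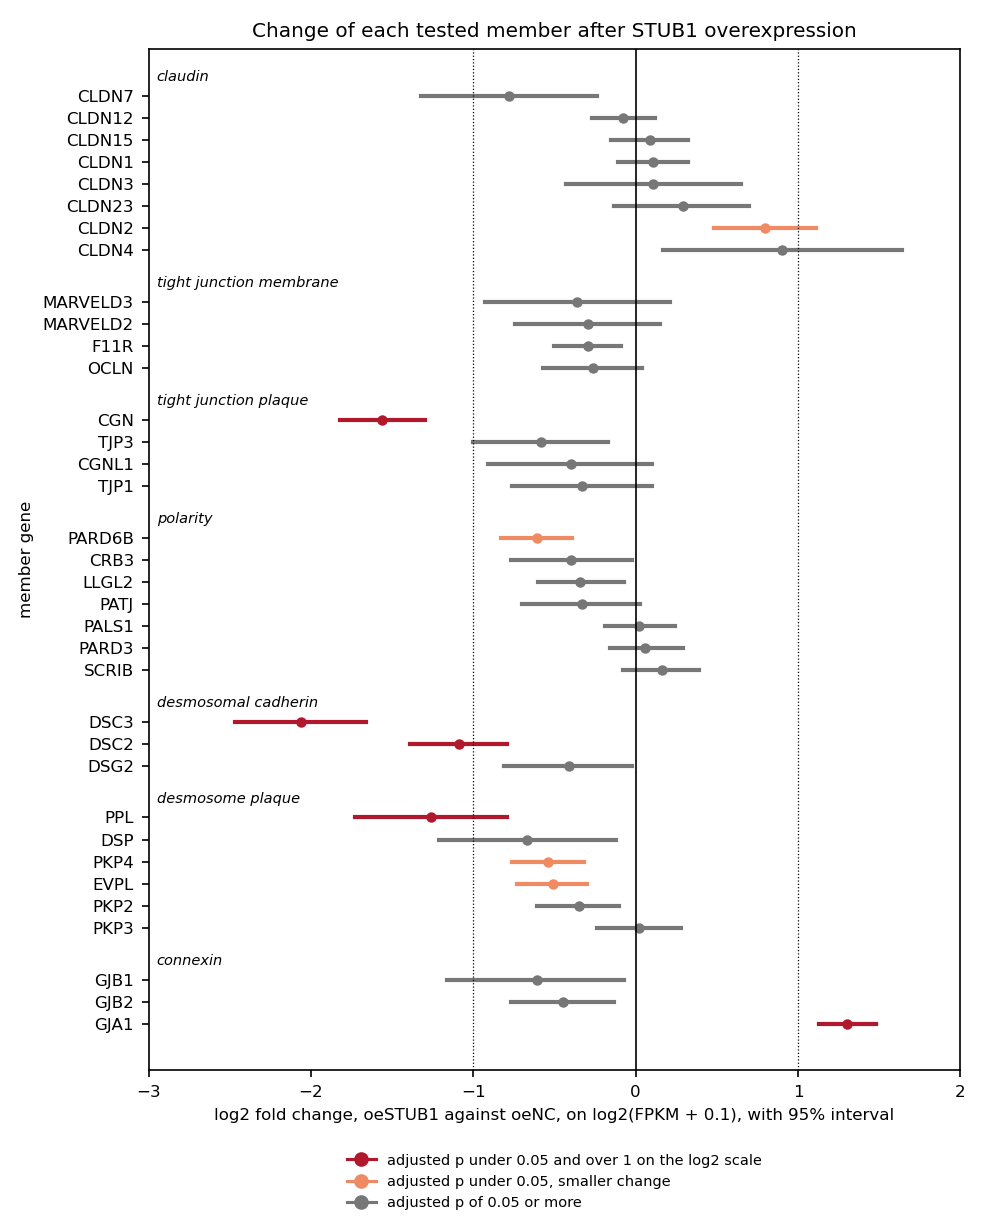
Log2 fold change (x axis, oeSTUB1 against oeNC on log2(FPKM + 0.1)) of the 35 tested members (y axis) grouped by role, with bars for 95% intervals and dotted lines at a change of 1 in either direction. The 4 dark red points left of the dotted line are DSC3, CGN, PPL and DSC2, and the dark red point on the right is GJA1 at 1.30.

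Among claudins, CLDN2 rose and the other abundant members stayed close to their control level. CLDN2, which forms a pore for cations and water and marks leaky epithelia, read 18.0, 18.7 and 20.3 FPKM in oeNC and 30.5, 28.8 and 41.1 FPKM in oeSTUB1. Every oeSTUB1 library lay above every oeNC library, and replicate 3 was the highest of all. The means were 19.0 ± 1.17 and 33.5 ± 6.63 FPKM (SD, n = 3), a 1.76-fold difference (log2 fold change 0.80, 95% interval 0.48 to 1.11, adjusted p = 0.008). CLDN1, a sealing claudin, read 21.9, 22.8 and 24.2 FPKM against 26.7, 25.6 and 22.1 FPKM, so that the groups overlapped (log2 fold change 0.11, interval -0.11 to 0.32, adjusted p = 0.50). CLDN12 and CLDN15 also overlapped, at 13.6 ± 0.645 against 12.9 ± 0.855 FPKM and at 5.77 ± 0.556 against 6.13 ± 0.291 FPKM.

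CLDN3, CLDN4, CLDN7 and CLDN23 read lower than the claudins above. CLDN7, usually spread along the lateral membrane, read 1.05, 1.25 and 0.954 FPKM in oeNC and 0.436, 0.851 and 0.531 FPKM in oeSTUB1, without overlap between groups (log2 fold change -0.78, interval -1.32 to -0.24, adjusted p = 0.066). Its highest oeSTUB1 value was that of replicate 2, the reverse of what was seen for long members. CLDN4 read 0.153, 0.204 and 0.466 FPKM in oeNC and 0.462, 0.695 and 0.535 FPKM in oeSTUB1 (log2 fold change 0.90, interval 0.17 to 1.64, adjusted p = 0.10), and oeNC replicate 3 alone reached the oeSTUB1 range. Without that library CLDN4 passed both limits, with a log2 fold change of 1.24 and an adjusted p of 0.033. CLDN3 (0.461 ± 0.153 against 0.495 ± 0.08 FPKM) and CLDN23 (1.85 ± 0.395 against 2.26 ± 0.328 FPKM) overlapped between groups.

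The makeup of the claudin pool differed between groups. CLDN2 made up 28.9%, 28.5% and 29.9% of the summed claudin FPKM in oeNC and 38.6%, 37.2% and 46.9% in oeSTUB1. CLDN1 went from 35.3%, 34.7% and 35.8% to 33.7%, 33.1% and 25.2%, and CLDN12 from 19.1% or more to 15.9% or less. CLDN1 was thus the leading claudin in each oeNC library and CLDN2 in each oeSTUB1 library, with 0.826 ± 0.00886 FPKM of CLDN2 per FPKM of CLDN1 in oeNC and 1.38 ± 0.419 in oeSTUB1. The median change of the 8 tested claudins was 0.11 on the log2 scale, 6 were positive and 2 negative, and the 7 other than CLDN2 had adjusted p-values between 0.066 and 0.79.

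**Figure D2:**
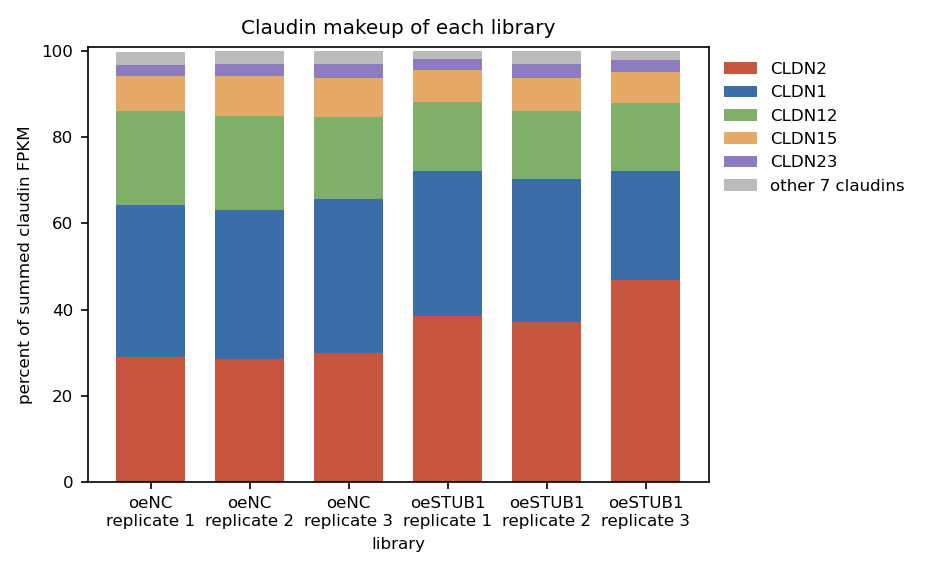
Share of each claudin in the summed claudin FPKM (y axis, percent) of each library (x axis), with the 5 most abundant claudins and the other 7 listed as one class. CLDN2 takes 28.5% to 29.9% of the bar in oeNC and 37.2% to 46.9% in oeSTUB1.

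CLDN2 lies at chrX:106900164-106930861 (GRCh38, GENCODE v29 gene span). Its exons overlap those of RIPPLY1 on the opposite strand, which had at most 6 fragments in any library, and its span lies inside that of MORC4, whose log2 fold change was 0.76 (adjusted p = 0.00068). Whether reads were counted by strand is not given in the sources used here, and the part of MORC4 transcripts in the CLDN2 value was not tested. Because the study was about DNA methylation, the 250 bases upstream of the RefSeq start site are shown for the members whose results matter most, 5′ to 3′ on the gene's strand, with CG dinucleotides, the sites that can be methylated, in capitals. The CLDN2 window (chrX:106899914-106900163, plus strand, GRCh38.p14) holds 0 CG and is shown for that reason.
CLDN2: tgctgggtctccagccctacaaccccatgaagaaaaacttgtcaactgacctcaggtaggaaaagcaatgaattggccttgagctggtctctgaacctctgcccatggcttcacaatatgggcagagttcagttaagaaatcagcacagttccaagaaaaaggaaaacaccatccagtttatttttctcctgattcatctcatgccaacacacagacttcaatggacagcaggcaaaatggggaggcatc

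None of the 4 other tight junction membrane members passed the test, and all 4 had lower means in oeSTUB1. F11R (JAM-A), an immunoglobulin-like adhesion protein, was the most abundant, at 16.9, 17.2 and 17.1 FPKM in oeNC and 13.2, 13.1 and 15.5 FPKM in oeSTUB1. All oeSTUB1 libraries lay below all oeNC libraries, but the change was small (log2 fold change -0.29, interval -0.50 to -0.09, adjusted p = 0.07). Occludin (OCLN) read 2.5 ± 0.196 against 2.07 ± 0.263 FPKM and also did not overlap. Tricellulin (MARVELD2), which seals the corners where cells meet, read 1.35 ± 0.142 against 1.1 ± 0.259 FPKM, and MARVELD3 was near the limit of measurement at 0.151 ± 0.0358 against 0.0956 ± 0.0266 FPKM. The 4 changes lay between -0.36 and -0.26 on the log2 scale, with adjusted p-values from 0.07 to 0.37.

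In the tight junction plaque the cingulin gene CGN fell 3.0-fold while the main scaffold TJP1 did not pass the test. CGN, whose product binds ZO-1 and the cytoskeleton, read 10.4, 9.84 and 9.06 FPKM in oeNC and 3.33, 2.85 and 3.58 FPKM in oeSTUB1, from 1885, 1788 and 1746 fragments and 602, 494 and 641 fragments. The groups were far apart compared with the spread inside them, at 9.75 ± 0.652 and 3.25 ± 0.372 FPKM (log2 fold change -1.56, interval -1.82 to -1.30, adjusted p = 0.00021). TJP1 (ZO-1) read 37.2, 36.7 and 37.1 FPKM against 37.5, 21.2 and 31.8 FPKM, with oeSTUB1 replicate 2 the lowest (log2 fold change -0.33, interval -0.76 to 0.10, adjusted p = 0.28). Without that library the change of TJP1 was -0.10 (adjusted p = 0.33). CGN per TJP1 went from 0.279, 0.268 and 0.244 to 0.0889, 0.134 and 0.113, without overlap between groups.

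TJP3 (ZO-3) read 6.92, 7.30 and 7.44 FPKM in oeNC and 3.89, 4.28 and 6.53 FPKM in oeSTUB1, without overlap (log2 fold change -0.58, interval -1.0 to -0.17, adjusted p = 0.073). Paracingulin (CGNL1), the relative of cingulin, was scarce at 0.412 ± 0.0617 against 0.291 ± 0.0742 FPKM (adjusted p = 0.26). CGN per CGNL1 was 25.6, 20.6 and 25.5 in oeNC and 10.1, 13.8 and 10.6 in oeSTUB1. CGN lies at chr1:151510510-151538692, and no annotated exon of another gene overlaps its exons. None of the 4 tested genes flanking CGN passed the test (log2 fold changes between -0.22 and 0.31). The upstream window of CGN (chr1:151511137-151511386, plus strand) is rich in CG, with 32, and is shown as the window of the tight junction gene that fell.
CGN: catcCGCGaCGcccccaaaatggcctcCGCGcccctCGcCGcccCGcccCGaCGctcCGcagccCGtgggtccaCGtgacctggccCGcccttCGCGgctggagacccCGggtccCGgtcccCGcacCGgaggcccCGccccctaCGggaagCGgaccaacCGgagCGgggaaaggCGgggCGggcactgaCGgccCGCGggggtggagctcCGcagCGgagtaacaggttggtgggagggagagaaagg

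Of the 7 polarity genes, PARD6B fell. PARD6B, the PAR-6 subunit that holds atypical protein kinase C at the apical side, read 4.51, 4.80 and 4.78 FPKM in oeNC and 2.85, 3.17 and 3.14 FPKM in oeSTUB1. The groups did not overlap, and the spread within each was small (4.7 ± 0.161 against 3.05 ± 0.178 FPKM, log2 fold change -0.61, interval -0.83 to -0.39, adjusted p = 0.0058). PARD3, its scaffold partner and the most abundant polarity member, read 26.2, 26.1 and 28.6 FPKM against 30.2, 24.8 and 29.7 FPKM and overlapped (log2 fold change 0.06, interval -0.16 to 0.29, adjusted p = 0.71). PARD6B per PARD3 was 0.173, 0.184 and 0.167 in oeNC and 0.0943, 0.127 and 0.106 in oeSTUB1.

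The Crumbs complex members read as follows. CRB3, the small transmembrane Crumbs protein of epithelia, was at 2.71 ± 0.0681 against 2.07 ± 0.46 FPKM (log2 fold change -0.40, adjusted p = 0.15), and its scaffold PATJ at 5.15 ± 0.354 against 4.11 ± 0.824 FPKM, both without overlap. PALS1, which joins them, overlapped at 12.4 ± 0.329 against 12.7 ± 1.25 FPKM. Of the basolateral Scribble complex, LLGL2 read 11.7 ± 0.823 against 9.28 ± 1.3 FPKM without overlap, and SCRIB overlapped at 20.3 ± 1.72 against 22.7 ± 2.21 FPKM. The 6 polarity members other than PARD6B had log2 fold changes between -0.40 and 0.16 and adjusted p-values between 0.097 and 0.89.

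**Figure D3:**
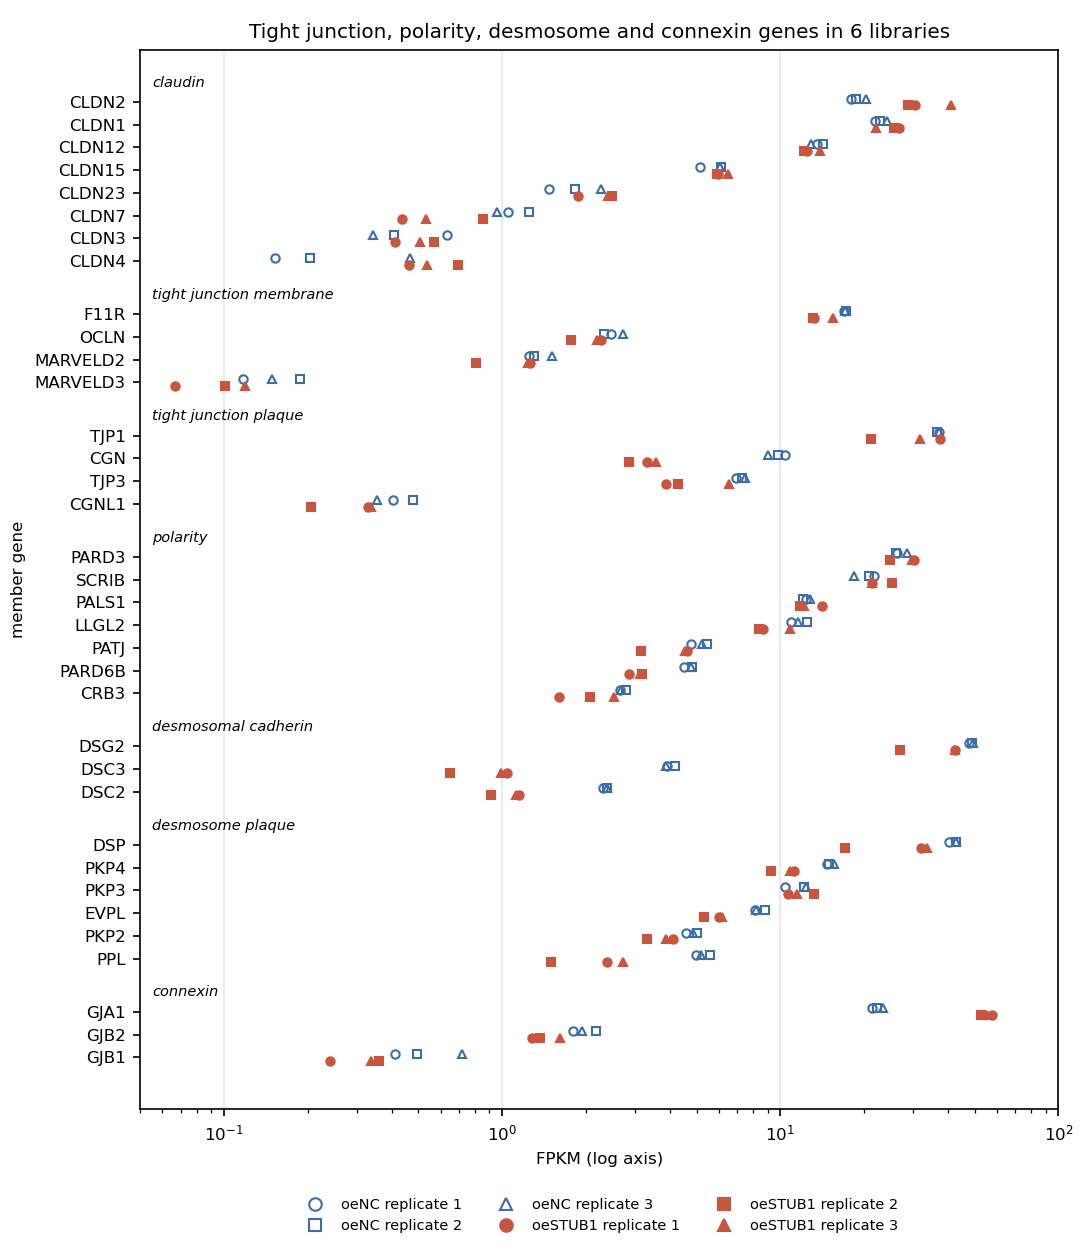
FPKM (x axis, log scale) of the 35 tested members (y axis, by role and then by mean) in each of the 6 libraries, with open blue symbols for oeNC and filled red symbols for oeSTUB1, and circles, squares and triangles for replicates 1, 2 and 3. DSG2, DSP, TJP1 and GJA1 are the most abundant, and the square of oeSTUB1 replicate 2 lies left of the other red symbols for 22 members.

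Of the 11 desmosome members 9 could be tested. By adjusted p 5 fell (6.59% of all genes did), 3 of these past both limits (2.4% of all genes), and for 8 of the 9 every oeSTUB1 library lay below every oeNC library (17.3% of all genes). Their median log2 fold change was -0.54, which was -0.45 without oeSTUB1 replicate 2 and -0.49 after length correction, and the median of the 26 tested members outside desmosomes was -0.29, which was -0.13 without oeSTUB1 replicate 2 and -0.25 after length correction. No test of the list as a whole was made.

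Both desmocollins fell. DSC3, a desmosomal cadherin best known from the basal layers of stratified epithelia, read 3.90, 4.19 and 3.88 FPKM in oeNC and 1.04, 0.65 and 0.994 FPKM in oeSTUB1, from 1031, 1107 and 1088 fragments and 273, 164 and 259 fragments. Each oeSTUB1 library was far below each control (3.99 ± 0.173 against 0.894 ± 0.213 FPKM), a 4.46-fold difference (log2 fold change -2.06, interval -2.47 to -1.66, adjusted p = 0.0004). DSC2, the desmocollin of simple epithelia, read 2.31, 2.39 and 2.38 FPKM against 1.15, 0.915 and 1.12 FPKM. It was 2.22-fold lower without overlap (log2 fold change -1.09, interval -1.39 to -0.79, adjusted p = 0.0017), close to the fold limit, which it no longer passed without oeSTUB1 replicate 2.

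DSG2, the desmoglein of simple epithelia and the most abundant desmosomal cadherin, read 47.6, 49.1 and 49.2 FPKM in oeNC and 42.5, 26.9 and 42.6 FPKM in oeSTUB1. The groups did not overlap, but replicate 2 lay far below the other oeSTUB1 libraries, and the change did not pass the test (log2 fold change -0.41, interval -0.81 to -0.02, adjusted p = 0.15). Without replicate 2 the change of DSG2 was smaller, at -0.19, and passed the adjusted p (0.014). The ratio of desmocollins to desmoglein, DSC2 plus DSC3 per DSG2, was 0.13, 0.134 and 0.127 in oeNC and 0.0515, 0.0581 and 0.0497 in oeSTUB1, and in this ratio replicate 2 was not apart. DSC3 per DSC2 went from 1.69 ± 0.061 to 0.833 ± 0.107, so that by FPKM DSC3 was the more abundant of the pair in oeNC and DSC2 in oeSTUB1. That order in oeNC depends on the recovered lengths, 7626 bases for DSC3 and 12408 for DSC2. Fragments in oeNC were 1031, 1107 and 1088 for DSC3 and 993, 1028 and 1086 for DSC2. DSG3 was nearly absent, with 0.0103 FPKM as its highest value.

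DSC3 (chr18:30990008-31042815) and DSC2 (chr18:31058840-31102522) lie next to each other on the minus strand, 16025 bases apart. The next tested gene is DSG2 (chr18:31498043-31549008) on the plus strand. DSC1, DSG1, DSG4 and DSG3 lie between DSC2 and DSG2 and were too scarce to be tested. The nearest tested gene on the other side, CDH2 (N-cadherin), lies 2812562 bases from DSC3 and moved the opposite way (log2 fold change 4.26, adjusted p = 2.2e-05). The 187 tested genes of chromosome 18 had a median log2 fold change of 0.03. The upstream windows of both desmocollins (chr18:31042743-31042992 and chr18:31102422-31102671, minus strand) are shown as those of the neighbouring pair that fell, with 18 CG for DSC3 and 12 for DSC2.
DSC3: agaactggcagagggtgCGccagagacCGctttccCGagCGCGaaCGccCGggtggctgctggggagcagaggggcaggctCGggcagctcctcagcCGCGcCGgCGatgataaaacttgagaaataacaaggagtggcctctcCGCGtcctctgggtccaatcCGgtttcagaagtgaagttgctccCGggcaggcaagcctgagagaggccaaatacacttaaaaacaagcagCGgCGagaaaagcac
DSC2: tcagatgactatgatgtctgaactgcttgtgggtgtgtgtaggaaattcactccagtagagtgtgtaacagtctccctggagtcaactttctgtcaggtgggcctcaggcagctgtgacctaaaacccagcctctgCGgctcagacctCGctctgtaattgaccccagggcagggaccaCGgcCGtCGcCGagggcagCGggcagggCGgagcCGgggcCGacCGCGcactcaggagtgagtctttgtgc

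Of the desmosome plaque genes, PPL, PKP4 and EVPL fell. Periplakin (PPL), a plakin that links desmosomes and the cornified envelope to keratin, read 4.96, 5.61 and 5.20 FPKM in oeNC and 2.39, 1.5 and 2.71 FPKM in oeSTUB1. The groups lay apart, at 5.26 ± 0.33 and 2.2 ± 0.626 FPKM, with replicate 2 lowest (log2 fold change -1.26, interval -1.73 to -0.79, adjusted p = 0.0062). Envoplakin (EVPL), the partner of periplakin, fell less, from 8.37 ± 0.408 to 5.84 ± 0.445 FPKM (log2 fold change -0.51, adjusted p = 0.011), so that PPL per EVPL was 0.611, 0.635 and 0.638 in oeNC and 0.396, 0.281 and 0.439 in oeSTUB1. PKP4, a p120-related armadillo protein of adherens junctions and desmosomes whose antisense neighbour PKP4-AS1 was at 0 or 0.0142 FPKM, fell from 15.1 ± 0.491 to 10.4 ± 1.03 FPKM (log2 fold change -0.54, adjusted p = 0.0094). Chromosome 2, where PKP4 lies, had a median of -0.20 over its 938 tested genes. The chromosomes of the other members past the test had medians of -0.03 to 0.06. The 4 tested genes flanking PKP4 read between -0.75 and -0.13, with none passing the test. The part of the chromosome in this fall was not tested further. Without oeNC replicate 2 or 3 the adjusted p of PKP4 was 0.051, and without oeNC replicate 1 or 2 that of EVPL was 0.051 and 0.07.

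Desmoplakin (DSP), which ties the plaque to keratin filaments and was its most abundant gene, read 40.3, 42.8 and 42.9 FPKM in oeNC and 32.0, 17.1 and 33.7 FPKM in oeSTUB1. All oeSTUB1 values were lower, and replicate 2 lay far below the others (log2 fold change -0.67, interval -1.21 to -0.12, adjusted p = 0.10). Without replicate 2 the change of DSP was smaller, at -0.35, and passed the adjusted p (0.003). Plakophilin 2 (PKP2) read 4.82 ± 0.234 against 3.77 ± 0.413 FPKM without overlap (log2 fold change -0.35, adjusted p = 0.077). Plakophilin 3 (PKP3) overlapped at 11.7 ± 1.14 against 11.8 ± 1.29 FPKM (log2 fold change 0.02, interval -0.24 to 0.28, adjusted p = 0.94), and plakophilin 1 was nearly absent. PKP3 per summed PKP2 and PKP4 was 0.539, 0.61 and 0.606 in oeNC and 0.70, 1.05 and 0.783 in oeSTUB1.

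**Figure D4:**
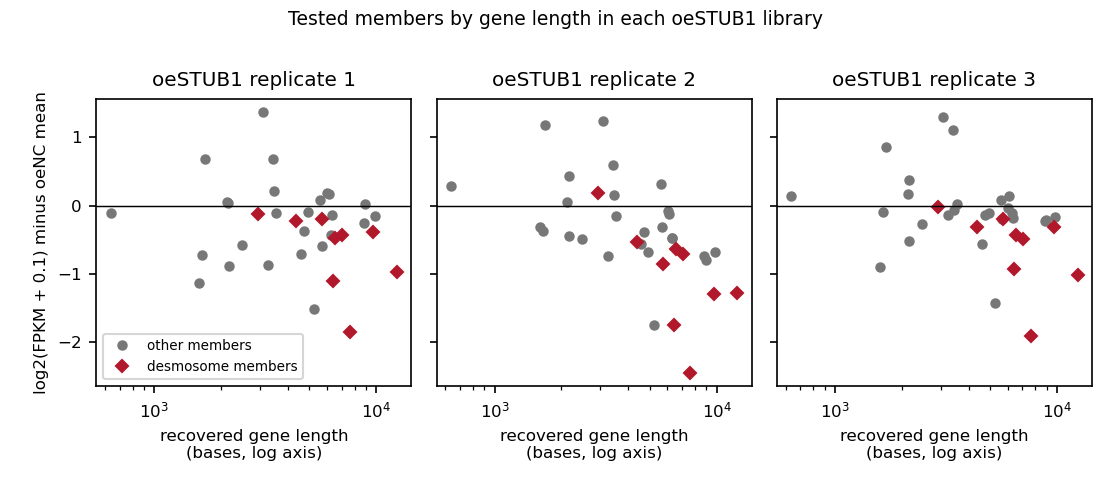
Difference of each tested member from its oeNC mean (y axis, log2(FPKM + 0.1)) against gene length recovered from the table (x axis, bases, log scale) in each oeSTUB1 library, with red diamonds for desmosome members and grey circles for the rest. The 21 long members have a median of -0.36, -0.68 and -0.22 in replicates 1, 2 and 3, and the 14 short members -0.11, 0.10 and 0.00.

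Length and library moved together with these results. The 21 members longer than the median tested gene had median differences from the oeNC mean of -0.36, -0.68 and -0.22 in oeSTUB1 replicates 1, 2 and 3 on the log2 scale, and the 14 shorter members had -0.11, 0.10 and 0.00. All long genes together stood at 0.06, -0.16 and 0.04 in the same libraries. The 9 desmosome members, with a median length of 6534 bases, stood at -0.43, -0.85 and -0.44. Their median log2 fold change was -0.54, and -0.49 after the correction for gene length. The part of gene length in their change was not tested further.

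Of the connexins, GJA1 rose. GJA1 (connexin 43), the most widely expressed gap junction protein and common in mesenchymal cells, read 21.3, 22.3 and 23.4 FPKM in oeNC and 57.9, 52.7 and 55.2 FPKM in oeSTUB1, from 2282, 2380 and 2653 fragments and 6152, 5377 and 5810 fragments. Every oeSTUB1 library was well above every control (22.3 ± 1.05 against 55.2 ± 2.62 FPKM), a 2.47-fold difference (log2 fold change 1.30, interval 1.13 to 1.48, adjusted p = 9.6e-05). GJB1 (connexin 32) read 0.54 ± 0.157 against 0.314 ± 0.0641 FPKM and GJB2 (connexin 26) 1.97 ± 0.197 against 1.42 ± 0.171 FPKM, both connexins of hepatobiliary and other epithelia, lower without overlap and with adjusted p-values of 0.13 and 0.073. GJA1 per summed GJB1 and GJB2 was 9.67, 8.33 and 8.87 in oeNC and 38.1, 30.5 and 28.3 in oeSTUB1. GJA1 lies at chr6:121435577-121449727, and the 4 tested genes flanking it, 100832 to 2085816 bases away, read between -0.13 and 0.05. The upstream window of GJA1 (chr6:121435396-121435645, plus strand) holds 1 CG and is shown as the window of the connexin gene that rose.
GJA1: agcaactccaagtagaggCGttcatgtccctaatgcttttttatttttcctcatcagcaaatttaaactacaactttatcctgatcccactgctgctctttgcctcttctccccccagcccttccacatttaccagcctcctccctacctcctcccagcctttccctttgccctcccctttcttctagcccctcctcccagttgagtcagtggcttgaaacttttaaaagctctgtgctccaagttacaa

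**Figure D5:**
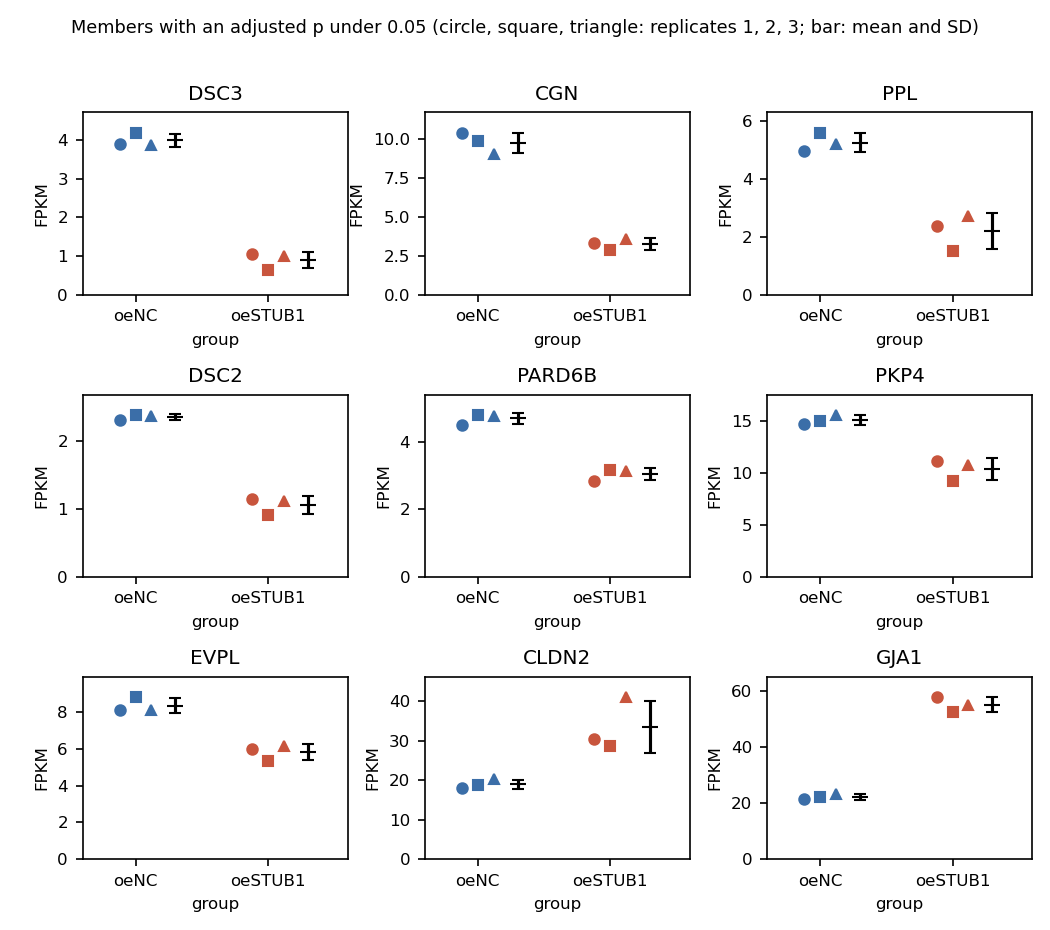
FPKM (y axis, starting at 0) of the 9 members with an adjusted p under 0.05 in each group (x axis), with a symbol for each library and a black bar for mean and SD (n = 3). In each panel the red oeSTUB1 symbols lie wholly above (CLDN2 and GJA1) or wholly below the blue oeNC symbols.

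An upstream window was found in RefSeq (GRCh38.p14) for 24 of the 35 tested members, and its start site can differ from the outermost start of the GENCODE span. The median window held 19.5 CG, against 21 for the 11980 tested genes with a window and 11 for all 27305 windows. For the 3 members past both limits downwards that had a window, the median was 18 CG. The windows shown above for CLDN2 and GJA1, the members that rose, were the poorest in CG of the 24, and the limit of 1 CG, chosen after these values were seen, also held for 3.21% of tested genes. GJB1 (log2 fold change -0.61) and CLDN4 (0.90), neither past the adjusted p, followed with 2 and 4 CG. No window was found for PARD6B, PPL and EVPL, which fell, so members that rose and fell cannot be compared in full. The motif CACCTG, read on both strands (CAGGTG on the other) and bound by Snail and ZEB family repressors, was found in 7 of the 24 windows (29.2%), against 16.1% of the windows of tested genes and 17.5% of all windows. CRB3 had 5 matches, DSG2, DSP and PATJ had 2 each, and OCLN, TJP1 and DSC2 had 1. The DSC2 match lies at position -156 from the start, and the windows of CGN, DSC3, GJA1 and CLDN2 held none.

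Further genes of the same structures were read from a list of 69, of which 57 were in the table and 34 could be tested. Past both limits none rose (2.79% of all genes did) and 2 fell (2.4% of all genes), LIN7A and AMOTL1. LIN7A, a small scaffold of the Crumbs complex, read 10.2, 10.5 and 10.3 FPKM in oeNC and 3.23, 2.30 and 3.42 FPKM in oeSTUB1 (log2 fold change -1.78, adjusted p = 0.00038). AMOTL1, an angiomotin that binds Crumbs scaffolds and YAP, read 10.3, 10.4 and 10.7 FPKM against 5.51, 3.03 and 5.82 FPKM (log2 fold change -1.17, adjusted p = 0.014), and replicate 2 was again lowest. AMOTL1 was no longer past both limits without oeSTUB1 replicate 2 (log2 fold change -0.88) or without oeNC replicate 1, 2 or 3 (adjusted p = 0.051, 0.054 and 0.059), which left LIN7A alone. By adjusted p alone 6 fell (6.59% of all genes), with JAM3, CXADR, JUP and PERP beside these, and 1 rose (7.01% of all genes), ESAM (0.592 ± 0.0354 against 1.14 ± 0.072 FPKM). Plakoglobin (JUP), shared by desmosomes and adherens junctions, went from 69 ± 2.19 to 46.0 ± 5.53 FPKM (log2 fold change -0.59, adjusted p = 0.0076), and the coxsackievirus and adenovirus receptor CXADR from 8.16 ± 0.398 to 5.72 ± 0.406 FPKM (log2 fold change -0.51, adjusted p = 0.011). The median log2 fold change of the 34 was -0.12.

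Of 12 transcription factors known to act on junction genes, 9 could be tested and 1 passed both limits, upwards (2.79% of all genes did so upwards and 2.4% downwards). SNAI2 (Slug), a repressor of epithelial genes, read 0.0397, 0.0265 and 0.0499 FPKM in oeNC and 0.506, 0.54 and 0.336 FPKM in oeSTUB1 (log2 fold change 2.00, adjusted p = 0.0018), a rise from a very low level that did not pass both limits with a pseudocount of 1 and was not tested with a filter at 1 FPKM. The other repressors tested overlapped between groups: SNAI1 (2.42 ± 0.346 against 1.95 ± 0.162 FPKM), ZEB1 (3.54 ± 0.444 against 3.21 ± 0.821 FPKM) and TWIST1 (1.05 ± 0.266 against 1.76 ± 0.591 FPKM). ZEB2 lay under the limit of 0.1 FPKM. Of the 9 factors tested, 4 had positive and 5 negative log2 fold changes, with a median of -0.12. GRHL2, an activator of claudin genes, averaged 0.00529 FPKM over the libraries and was not tested. E-cadherin (CDH1), the adherens junction partner of these structures, read 62.6 ± 2.2 against 30.0 ± 7.53 FPKM (log2 fold change -1.09, adjusted p = 0.0055).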

How the data were processed

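The 6 RNA-seq libraries of TFK1 cells, 3 oeNC and 3 oeSTUB1, were matched to the columns of 1 table by sample name. The authors deposited FPKM values for 23569 genes by symbol. The submitters' processing notes name fastp 0.20.1, HISAT2 2.1.0, HTSeq 0.11.2, R 3.2.0, DESeq2 1.22.2 and GRCh38.p13. Their settings, the annotation and the use of strand are not given in the sources used here.

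Whole fragments were recovered from the FPKM steps for 100.0% of genes, and FPKM recomputed from them differed by at most 4.9e-06. Recovered lengths and fragments may both be understated by a shared whole factor. The groups were tested on log2(FPKM + 0.1) by two-sided moderated linear models (limma 3.58.1 under R 4.3.3, lmFit, and eBayes with trend). The 15353 genes whose mean reached 0.1 FPKM were tested, and p-values were adjusted over all of them (Benjamini-Hochberg). Fold changes on this scale understate changes of low genes. On simulated data with 200 genes changed 4-fold among 15316, 200 were recovered and 8 unchanged genes passed. The simulation gave all genes the same dispersion, changed only more abundant genes, and held no library like oeSTUB1 replicate 2. It therefore cannot show how often smaller changes or changes of scarce genes were missed or wrongly passed here.

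Members, lists and the rule for named genes were chosen with earlier results of these data known. Values in each library are given for members past both limits and for the most abundant member of each role, with those of further members added after their values were seen. Ratios between members and CG counts were also chosen after the values were seen and carry no test. The main fit did not pair libraries by replicate number. Correlations of deviations were -0.0491, -0.0521 and 0.0617 for equal numbers and -0.0972 to 0.11 for unequal numbers. With so few libraries these cannot show that no pairing existed. Alternatives were other pseudocounts, filters and scalings, limma-voom on the recovered fragments, a fit without trend, a replicate block, leaving out each library and, added after seeing the data, a lowess correction for gene length. Figures were drawn with matplotlib 3.10.9.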

Additional observations from a re-analysis of the deposited data

How the results depend on the processing

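Of 554 member values under the alternatives, 522 kept their direction, their side of the adjusted p and whether they passed both limits. Another 8 lost and 16 gained the adjusted p or a place past both limits, and 8 changed sign. Crossing the fold limit alone was not counted. CLDN4 did so without passing the adjusted p with a pseudocount of 0.01 (1.15), with limma-voom (1.14) and without oeSTUB1 replicate 1 (1.01). The gains were of CLDN4, CLDN7, F11R, TJP3, LLGL2, DSG2, DSP, PKP2 and GJB2, under quantile normalization (F11R), without oeNC replicate 3 (CLDN4), without oeSTUB1 replicate 2 or 3, or with the length correction. The sign changes were all of small values: CLDN3 at -0.05 without oeNC replicate 3 (up to 0.32 without other libraries), PALS1 at -0.05 without oeSTUB1 replicate 1 (up to 0.08), PARD3 at -0.02 with quantile normalization, and PKP3 at -0.01 with median-ratio scaling, -0.02 with quantile normalization, -0.07 without oeNC replicate 1, -0.07 without oeSTUB1 replicate 2 (up to 0.08) and -0.03 with the length correction. DSC2 missed the fold limit with a pseudocount of 1 (-0.71), without oeSTUB1 replicate 2 (-0.99) and with the length correction (-0.98), and PPL with a pseudocount of 1 (-0.99). A larger pseudocount shrinks changes of low genes by its construction, and for the others the cause was not tested.

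The number of members past both limits was 1 higher and 4 lower. It was 2 higher and 7 lower with adjusted p alone, 2 lower with a pseudocount of 1, and from 1 to 2 higher and 4 lower when each library was left out, the second higher member being CLDN4 without oeNC replicate 3. With the replicate block it was 1 higher and 4 lower, and no call of a member changed, while 1488 genes in all passed the adjusted p against 2088 without it. Shares of all genes past both limits are not given here for these refits. Of the other junction and polarity genes, 1 was higher and 6 lower with adjusted p alone, and leaving out each library gave 1 to 2 lower (1 without any oeNC library or without oeSTUB1 replicate 2). The count of regulators was 0 with a pseudocount of 1 or a filter at 1 FPKM, both of which bear on SNAI2 by its low level. The log2 fold change of STUB1 was 0.96 with quantile normalization, 0.95 with the length correction and between 0.93 (without oeSTUB1 replicate 2) and 1.08 when each library was left out, including 0.99 without oeNC replicate 3, all with an adjusted p under 0.05. PKP4 and EVPL lost their adjusted p without single oeNC libraries, as given with their values. With 3 libraries a group the intervals of scarce members were wide, as for CLDN4 (0.17 to 1.64).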
